A study of Mus musculus with 12 samples.

Results

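The 6 control libraries of a mouse muscle study were described on their own, out of 12 libraries in all. They were chosen by their label alone, as the control columns of a table of read counts per gene. Each library was made from a whole lysate of tibialis anterior, a fast muscle at the front of the lower hind leg, taken 5 days after glycerol was injected into it. The genotype of these samples is given as Wildtype and the strain as 129svlmJ; age and sex are not labelled, and no Cre or floxed allele is named for them. The other 6 libraries come from muscle with Pparg deleted in fibro-adipogenic progenitors and were not used. No uninjured muscle was analysed here, so a level is never called raised or lowered by the injury. The labels do not say that the 6 libraries come from separate animals, so every error and p-value refers to spread among these libraries, which may be technical.

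Glycerol kills muscle fibres, and the damaged tissue is cleared by phagocytes, mainly macrophages derived from blood monocytes. Satellite cells, the stem cells of muscle, divide, become myoblasts and fuse into new fibres that first carry embryonic and neonatal isoforms of the contractile proteins. FAPs, short for fibro-adipogenic progenitors, are mesenchymal cells between the fibres that lay down matrix meanwhile, and glycerol is used as an injury because part of them turn into fat cells within the muscle.

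The libraries held between 17983299 and 25613732 counts assigned to genes, and 13774 genes reached a level of 1 CPM, the count scaled to a common library total, in all 6. Counts of every pair of libraries differed by more than sampling noise. The libraries were however not alike in their relations to each other. At 34 loci whose level was either high or at least 4-fold lower with nothing between, controls 2 and 3 shared their state at 82.4% and controls 4 and 5 at 91.2%, against 5.88% to 55.9% for the other 13 pairs. The interferon-induced gene Ifi44l was at 15.3, 30.7 and 16.2 CPM in controls 1, 4 and 5 and at most 0.0390 CPM in controls 2, 3 and 6. Trim12a, a TRIM family gene, was at 0.0485 and 0 CPM in controls 2 and 3 and between 6.59 and 11.7 CPM in the other 4. The 6 libraries thus fell into 4 sets at these loci, and each test below is also given over the 4 sets. Xist, the RNA that silences an X chromosome in female cells, was between 550.2 and 722 CPM, while Ddx3y, Eif2s3y and Kdm5d of the Y chromosome had no count in any library.

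The most abundant transcripts included genes of the mitochondrial genome, of fast fibres, of the matrix and of the macrophage lists. In CPM, the highest mean belonged to mt-Co1, a subunit of cytochrome oxidase, at 21156 ± 8031 (SD, n = 6). It was followed by mt-Cytb, skeletal muscle actin (Acta1, 10638 ± 2709), mt-Nd1 and the heavy chain of the fastest fibres (Myh4, 7103 ± 2441). Within the 20 most abundant protein-coding genes stood Col3a1 (5146 ± 791) and Col1a1 (3924 ± 788), the fibrillar collagens of types III and I. In the same range stood Lyz2, the lysozyme of macrophages, at 4594 ± 617 CPM. Psap and Ctsb, which act in lysosomes and are in no macrophage list here, stood there too. Apoe, a lipid carrier that macrophages secrete, reached 3923 ± 1106 CPM. The most abundant RNA without a protein was H19, an imprinted transcript of growing tissue, at 4711 ± 878 CPM. Controls 2 and 6 held the 2 lowest values of mt-Co1, Acta1, Myh4 and Mylpf, and the 2 highest of Col3a1, Col1a1 and Apoe.

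**Figure D1:**
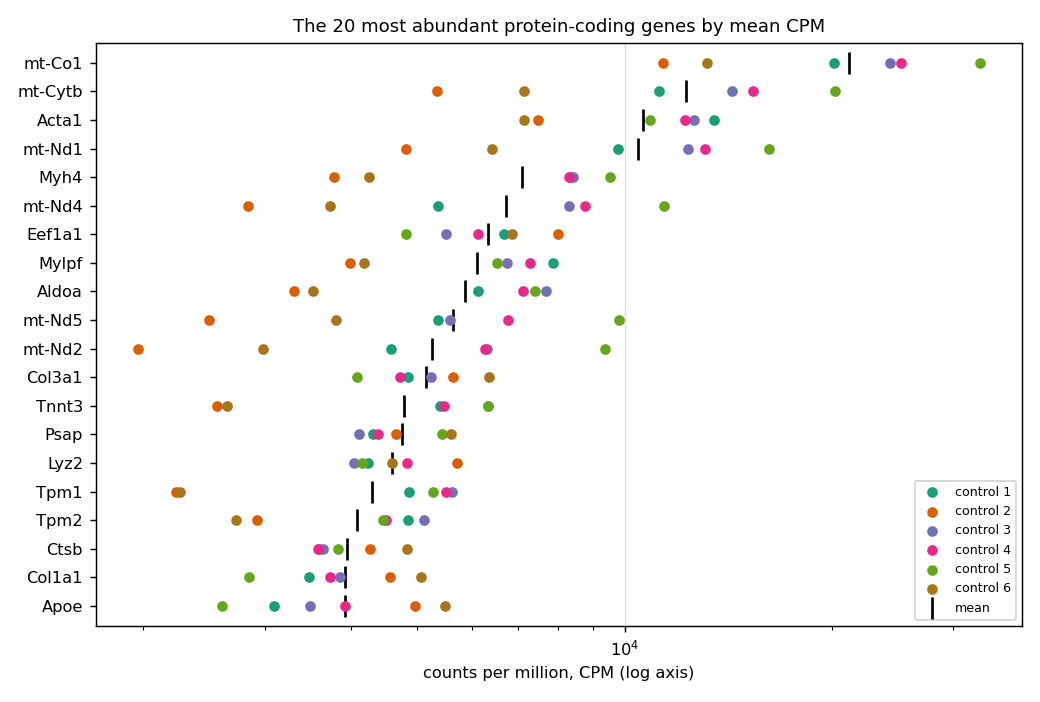
The 20 protein-coding genes with the highest mean CPM (horizontal log axis), with 1 coloured point for each of the 6 control libraries and a black bar for their mean. Controls 2 and 6 lie at the left for the genes of mitochondria and fibres, as for Acta1 at 7483 and 7152 CPM, and at the right for Col3a1 at 5639 and 6359 CPM.

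The order of neighbours in this ranking was mostly not fixed. mt-Co1 stood above mt-Cytb and mt-Nd1 above Myh4 in all 6 libraries, while Acta1 stood above mt-Nd1 in 4 and Col1a1 above Apoe in 3. Of the mitochondrial genes, mt-Co2, mt-Co3, mt-Atp6, mt-Nd3 and mt-Nd4l consist almost wholly of 50-base words that nuclear pseudogenes also hold, so how their reads were divided is uncertain. mt-Nd4 shared 62.2% and mt-Co1, the top gene, 51.1% of their words with pseudogenes, so their levels carry the same doubt. mt-Co3 ran from 124 to 2492 CPM between libraries. Eef1a1, a translation factor, shared 59.2% of its words with other genes and is uncertain in the same way.

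Counts were concentrated in few genes, to a degree that differed between libraries. The 10 most abundant genes of a library took 9.54%, 6.26%, 10.7%, 11.03%, 13.4% and 6.80% of counts in controls 1 to 6. Between 570 and 894 genes made up the first 50% of counts, with most genes needed in control 6 and fewest in control 5. Protein-coding genes held 97.0% ± 0.15 of counts, processed pseudogenes 1.04% ± 0.086 and long intergenic RNAs 0.980% ± 0.099.

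Grouped by function, 21 classes of genes together took 38.8% ± 3.54 of counts. The sarcomere, the contractile unit of the fibre, held 7.22% ± 1.69 and the 13 protein genes of the mitochondrial genome 6.65% ± 2.89. Ribosomal proteins took 5.03% ± 0.53, the cytoskeleton outside the sarcomere 2.87% ± 0.27, and cathepsins with other lysosomal genes 2.37% ± 0.23. The respiratory chain encoded in the nucleus held 2.31% ± 0.33, the collagens 1.92% ± 0.28 and glycolysis 1.79% ± 0.42. Much smaller were the MHC genes at 0.542% ± 0.096, complement at 0.266% ± 0.052 and immunoglobulins at 0.00561% ± 0.00092.

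The classes of muscle and of the mitochondrial genome were less even between libraries than the proteasome, ribosomal proteins and translation factors. Ribosomal proteins had a 1.37-fold range, translation factors a 1.36-fold range and the respiratory chain encoded in the nucleus a 1.51-fold range. Mitochondrial protein genes took 6.04%, 3.06%, 7.77%, 8.34%, 10.8% and 3.92% of counts in controls 1 to 6, a 3.52-fold range. The sarcomere took 8.86%, 5.02%, 8.19%, 8.13%, 7.99% and 5.11%, so that controls 2 and 6 were lowest in both. Calcium handling with creatine kinase showed a 1.99-fold range and glycolysis a 1.79-fold range. Collagens had their highest shares in controls 6 and 2, at 2.34% and 2.17%, and their lowest in control 5 at 1.57%. The proteasome, which degrades proteins marked with ubiquitin, was the most even class at 0.632% ± 0.022, with a 1.09-fold range. The globins were the least even class, with 0.00645% in control 1 and between 0.0447% and 0.0893% in the other 5 libraries.

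**Figure D2:**
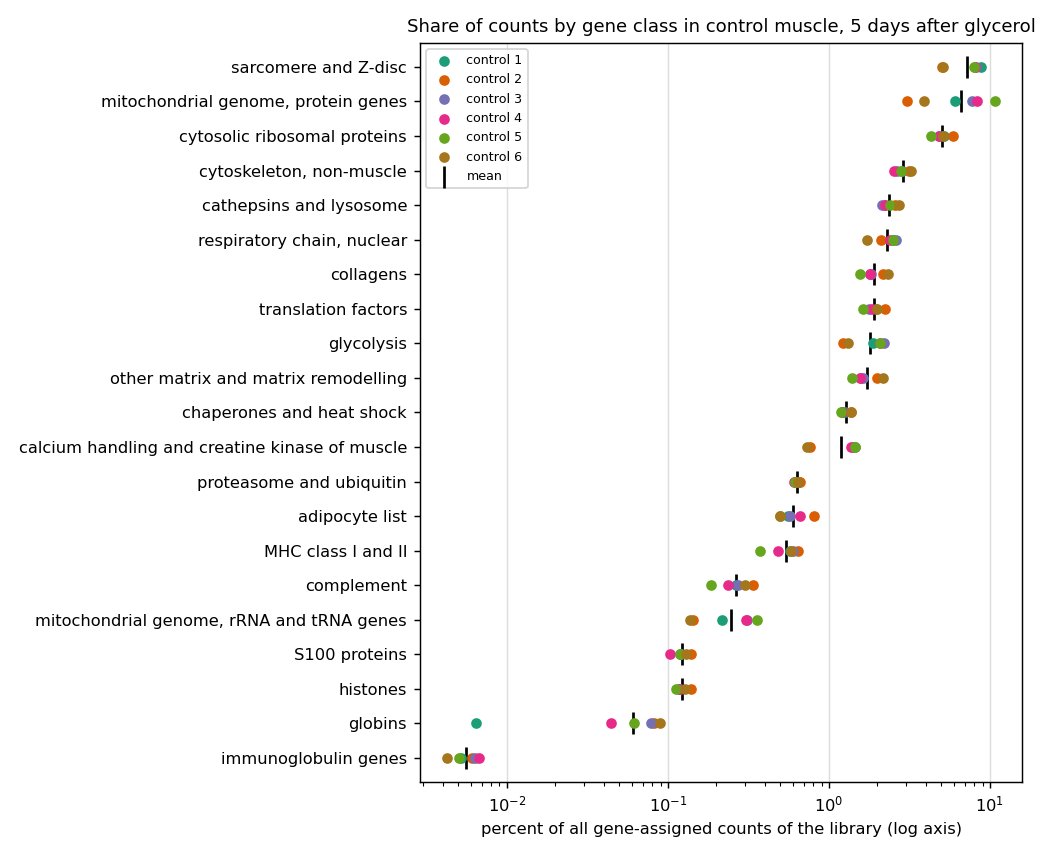
Share of all gene-assigned counts (percent, horizontal log axis) held by each of 21 gene classes, with 1 point for each control library and a black bar for the mean. The sarcomere spans 5.02% to 8.86%, the proteasome stays between 0.608% and 0.661%, and control 1 stands apart for the globins at 0.00645%.

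Length changes this picture, because a long transcript gives more fragments. As a share of TPM, where each count is divided by the gene length, the mitochondrial protein genes held 13.8% ± 5.56, ribosomal proteins 7.99% ± 1.17 and the sarcomere 7.39% ± 1.61. Collagens fell to 0.576% ± 0.12. The gene length covers all exon bases of a gene, 12426 for Col1a2, for which 5299 transcript words were counted. How far the fall reflects long transcripts or this divisor was not tested. Because a long transcript gives more fragments, the levels of different genes are compared below in FPKM. These are the deposited values of the authors, scaled for the same gene length and for library size.

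Genes listed for mature fast fibres had the highest levels of all cell type lists examined. Of 19 genes of such fibres, 18 reached 1 CPM in every library, and their median level was 624 FPKM. Acta1 stood at 8865, 4562, 8585, 8322, 7506 and 4221 FPKM in controls 1 to 6. The regulatory light chain Mylpf stood at 7461, 3513, 6653, 7178, 6501 and 3572 FPKM. Both were lowest in controls 2 and 6, whose values did not reach those of the other 4 libraries. The summed level of the list also separated controls 2 and 6 from the other 4, at 61763, 28960, 59989, 58433, 60207 and 30129 CPM. Pvalb, the calcium buffer of fast fibres, ranged from 410 to 2682 FPKM, and Mybpc2, the fast myosin-binding protein C, from 13.2 to 183 FPKM. In bulk RNA, fewer cells of a type and less RNA per cell cannot be told apart.

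Among the myosin heavy chains of adult fibres, Myh4 exceeded Myh1 by 3.17-fold in FPKM, in 6 of 6 libraries. Myh2, the heavy chain of fast oxidative fibres, was between 6.69 and 15.2 FPKM in controls 1 to 5 and at 30.5 FPKM in control 6. Myh7, the slow heavy chain, was at 0.172 ± 0.057 FPKM. Of their 50-base words, Myh1 shared 26.7%, Myh2 26.9%, Myh4 18.9% and Myh7 22.2% with other genes. The levels of these heavy chains and their ratio are therefore uncertain in part. Myl2, the slow light chain, was between 0.141 and 0.796 FPKM in controls 1 to 5 and at 2.97 FPKM in control 6. Myh7 and Myl2, defining genes of the slow list, were thus close to absent, but Tnni1, also a defining gene, was not. Other members of the slow list were well detected, among them the slow troponins Tnni1 (122 FPKM), Tnnt1 (136 FPKM) and Tnnc1 (158 FPKM) and Mybpc1 (238 FPKM), which other fibres also express. Control 1 had the highest summed level of the slow list at 3633 CPM, against 2529 to 2762 CPM in the other 5. Mybpc1 made up 37.4% of the mean sum. By the mean log2 CPM of the members control 6 was highest, at 6.28 against 6.11 in control 1.

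A single fast fibre gene was out of place. Tnnc2, the calcium-binding subunit of the fast troponin complex, was listed at 1.56, 0.455, 1.02, 0.552, 1.02 and 0.189 FPKM in controls 1 to 6. Its partners in the complex, Tnnt3 and Tnni2, stood at 3081 ± 1255 and 1773 ± 822 FPKM. Of the 800 exon bases of Tnnc2, 74.0% lie opposite an exon of Ube2c, a gene of the cell cycle on the other strand, which was at 14.3 ± 1.42 FPKM. Whether reads were counted by strand is unknown here, and its part in the low value was not tested. Of 403 list members, sex-linked check genes included, 3 had at least 50% of their exon bases opposite another gene, the others being Tagln and Folr2. Tagln, a smooth muscle gene, was at 0.445 ± 0.16 FPKM although Acta2, the actin of the same cells, was at 257 ± 62.2 FPKM. A level near 0 is described here for Tnnc2 and Tagln, not for Folr2. Whether such overlap goes with a low level was not tested.

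Genes listed for regenerating fibres were detected beside those listed for mature ones. Bulk RNA does not show whether they come from separate fibres. All 7 genes of regenerating fibres reached 1 CPM in every library, with a median of 82.9 FPKM. Embryonic myosin heavy chain (Myh3) stood at 321, 392, 211, 245.4, 221 and 330.2 FPKM in controls 1 to 6, highest in control 2 and lowest in control 3. It exceeded the neonatal form Myh8 by 3.43-fold and reached 0.252 of the level of Myh4, with the same direction in 6 of 6 libraries for both. The log2 ratio of Myh3 over Myh8 was 1.78 in FPKM and 0.82 in CPM. Myh8 was divided by 11772 exon bases, with 6100 transcript words counted, and Myh3 by 6057, with 5982 words. Myh8 shared 21.4% of its words with other genes and Myh3 4.81%, so the level of Myh8 is uncertain in part. Cardiac actin (Actc1), which immature skeletal fibres carry, was at 2186 ± 739 FPKM, below Acta1 by a ratio of 3.22. Adult troponin Tnnt3 exceeded the embryonic form Tnnt2 by 65.5-fold, a log2 ratio of 6.03 that was 3.75 in CPM, without division by length. Tnnt2 was divided by 7752 exon bases, with 3281 transcript words counted, and Tnnt3 by 1583, with 1030 words. Chrng, the acetylcholine receptor subunit of immature fibres, was at 26.6 ± 4.86 FPKM, and its adult replacement Chrne at 2.06 ± 0.89 FPKM.

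The summed level of regenerating fibre genes did not follow that of mature fibres. It was 10800, 9193, 6992, 7256, 6471 and 7409 CPM in controls 1 to 6, so control 2, lowest for mature fibres, was the second highest here. Control 1 was high in both. With TMM scaling, which corrects for a few genes that dominate a library, controls 1 and 2 were still highest, at 10985 and 8593 CPM.

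Promoters of 4 genes are shown, taken from the lists of mature fast fibres, regenerating fibres and differentiating myocytes. Each is the 120 bases before the annotated start in RefSeq, build GRCm38.p6, read 5′ to 3′ on the strand of the gene. Capitals mark CANNTG, the E-box to which MyoD family factors can bind, whose letters read alike on both strands, and TATAAA, searched on both strands. Of 27025 promoters of this length, 40.0% hold CANNTG and 6.76% TATAAA, so a match is a description and no evidence of binding. Acta1 lies at chr8:123894776-123894895 (minus strand), Mylpf at chr7:127211488-127211607, Myh3 at chr11:67078180-67078299 and Myog at chr1:134289884-134290003.
Acta1: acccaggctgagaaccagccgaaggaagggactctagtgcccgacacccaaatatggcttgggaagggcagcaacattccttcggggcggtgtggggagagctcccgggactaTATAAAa
Mylpf: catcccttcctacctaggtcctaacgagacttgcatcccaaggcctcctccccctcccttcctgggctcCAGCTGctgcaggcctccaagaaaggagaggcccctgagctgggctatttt
Myh3: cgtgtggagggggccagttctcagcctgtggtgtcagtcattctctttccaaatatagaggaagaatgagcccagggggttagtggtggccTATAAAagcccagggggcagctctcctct
Myog: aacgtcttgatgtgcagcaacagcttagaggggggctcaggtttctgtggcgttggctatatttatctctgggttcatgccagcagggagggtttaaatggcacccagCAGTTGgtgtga
Acta1 and Myh3 held TATAAA and no CANNTG in this window, while Mylpf and Myog held 1 CANNTG each and no TATAAA. Of the fast fibre genes also searched but not shown, Ckm held neither motif, and Atp2a1 and Eno3 held 1 CANNTG each.

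Genes of differentiation and fusion were detected throughout. Myog, the factor that starts terminal differentiation, was at 163 ± 32.4 FPKM and exceeded Myod1, the factor of committed myoblasts, in 6 of 6 libraries, with Myod1 at 0.287 of its level. Mymk and Mymx, the membrane proteins that fuse myoblasts, were at 116 ± 20.01 and 34.5 ± 10.8 FPKM. Control 2 had the highest level of Myog, Mymk and Mymx, at 216, 149 and 54.8 FPKM. Markers of satellite cells were lower, with Pax7 at 2.60 ± 0.58 FPKM and Myf5 at 6.77 ± 1.32 FPKM. Des, an intermediate filament of all muscle cells, made up 83.2% of the summed level of the satellite cell and myoblast list, so the sum says little about stem cells.

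FAP genes and matrix genes were abundant and fairly even. All 19 FAP genes reached 1 CPM in every library, with a median of 37.1 FPKM and a summed level of 3896 ± 551 CPM. Gsn, an actin-severing protein, led the list at 264 FPKM, and the receptor Pdgfra, by which FAPs are sorted, was at 8.73, 11.3, 10.4, 11.3, 9.87 and 14.4 FPKM in controls 1 to 6. Pdgfra was below Pdgfrb, a receptor shared with the mural cells of vessels, by a ratio of 0.486 in FPKM. In CPM the log2 ratio moved from -1.04 to -0.18 and no longer passed (exact permutation test, adjusted p = 0.292), so this order rests on the length divisor. All 19 genes of matrix remodelling reached 1 CPM, led by Sparc at 712 ± 82.0, Bgn at 215 and Fn1 at 158 ± 33.4 FPKM. Col1a1 exceeded Col3a1 in FPKM in 6 of 6 libraries, by a ratio of 0.883 for Col3a1 over Col1a1. The order was the opposite in CPM. The gene length was 9816 exon bases for Col3a1 and 6563 for Col1a1, while the transcript words counted numbered 5515 and 5881. The order of these collagens in FPKM thus also rests on the length divisor.

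Fat cell genes were all present. Each of the 21 adipocyte genes reached 1 CPM in every library, with a median of 23.2 FPKM. Adipoq, the hormone made by fat cells, stood at 251, 316, 253, 288, 176 and 157 FPKM in controls 1 to 6. Plin1, the coat of the large lipid droplet, stood at 51.2, 69.4, 41.5, 62.3, 49.5 and 54.2 FPKM. Control 2 was highest for both, but Adipoq was lowest in control 6 and Plin1 in control 3. The summed list had 5728, 8331, 5954, 6792, 5082 and 5056 CPM, a 1.65-fold range. Fabp4, a fatty acid carrier of fat cells and endothelium, made up 36.0% of it at 492 ± 99.4 FPKM, and exceeded Fabp3, the carrier of muscle and heart, by 1.85-fold in 6 of 6 libraries, a log2 ratio of 0.89 in FPKM and 3.33 in CPM.

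Regulators of fat formation were detected in every library as well. All 14 reached 1 CPM, with a summed level of 690.1 ± 99.6 CPM and a 1.39-fold range. Pparg, the nuclear receptor that drives fat cell differentiation, was at 18.1, 21.9, 15.04, 22.5, 18.03 and 19.6 FPKM. Cebpa, its partner factor, was at 92.7 ± 11.1 FPKM and above Pparg in 6 of 6 libraries, with Pparg at 0.207 of its level. Of the less even adipocyte genes, Scd1, which makes unsaturated fatty acids, ranged from 83.5 to 277 FPKM and Cfd, adipsin, from 63.4 to 239 FPKM, both lowest in control 6 and highest in control 2. Plin2, the droplet coat of many cell types, was above Plin1 in 5 of 6 libraries, 1.36-fold on average, which did not pass the test.

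Macrophages were the most prominent immune cells. All 15 general macrophage genes reached 1 CPM in every library, with a median of 139 FPKM, the highest of the cell lists after that of mature fast fibres. Lyz2 stood at 3253, 4060, 3219, 3836, 3346 and 3160 FPKM in controls 1 to 6. The summed list was at 8525 ± 1000 CPM, of which Lyz2 held 53.9%. Its range over libraries was 1.37-fold, and 1.21-fold after TMM scaling. Csf1r, the receptor for macrophage growth factor, was at 110 FPKM, Adgre1, which encodes F4/80, at 73.8 FPKM and Cd68 at 212 FPKM.

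The 10 genes of lipid-associated macrophages, cells that take up lipid and debris, were all detected with a median of 115 FPKM. Apoe led at 1811 ± 403 FPKM, the galectin Lgals3 was at 452 FPKM, the osteopontin gene Spp1 at 194 ± 63.7, Gpnmb at 113 ± 35.2 and the receptor Trem2 at 30.0 FPKM. Apoe and Spp1 were highest in control 6, at 2324 and 292 FPKM, while Gpnmb and Lgals3 were highest in control 5.

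The lists of the repair and the inflammatory state of macrophages had far lower medians, at 4.99 and 0.892 FPKM. Single members such as Mrc1 and Ccl2 were however above Trem2. Mrc1, the mannose receptor, was at 61.4 ± 16.97 FPKM, highest in control 6 at 90.7 FPKM, and made up 73.3% of the summed repair list. Of the inflammatory genes, the monocyte receptor Ccr2 was at 17.6 ± 3.85 FPKM and the chemokine Ccl2 at 40.6 FPKM, but Il1b, Tnf and Nos2 were at 2.67, 0.892 and 0.718 ± 0.13 FPKM. Arg1, an enzyme of repair macrophages, was between 0.0774 and 1.28 FPKM in controls 1 to 5 and at 8.51 FPKM in control 6. Arg1 and Nos2 therefore had no constant order, with Arg1 higher in 2 of 6 libraries (exact sign-flip permutation test, two-sided, p = 0.844).

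Other leukocytes left little RNA. The median neutrophil gene was at 0.274 FPKM, and Csf3r, which macrophages can also carry, made up 77.8% of the list. Ly6g had 0 counts in every library, which allows up to 0.167 CPM in the smallest library (3 counts, counting error only). S100a8 and S100a9, the alarmins of neutrophils, were at 6.51 and 8.93 CPM in control 2 and at most 2.06 and 1.52 CPM elsewhere. The T and NK cell list had a median of 0.660 FPKM and the eosinophil list of 0.111 FPKM. In the dendritic cell list the class II genes H2-Aa, H2-Ab1, H2-Eb1 and Cd74, which macrophages share, were between 258 and 785 FPKM, while the more specific Xcr1, Clec9a and Flt3 were at 0.785, 1.24 and 0.957 FPKM. Ighm and Sdc1, the latter expressed by many cells, led the B and plasma cell list, whose median was 1.34 FPKM.

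Vessels and nerve were measurable at low levels. All 12 endothelial genes reached 1 CPM, with a median of 7.87 FPKM and a summed level of 466.4 ± 72.1 CPM. Pecam1, an adhesion protein of all endothelium, was at 13.8 ± 1.61 FPKM. In the mural cell list, Rgs5 of pericytes was at 24.3 and Pdgfrb at 22.7 FPKM. Pmp22 made up 81.4% of the summed Schwann cell list, and the more specific Sox10 was at 0.0608 FPKM. In the same way Pf4 made up 93.1% of the platelet list, whose other members were at most 1.37 FPKM.

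Tendon and blood genes differed most between libraries. The tenocyte list summed to 301, 785, 952, 513, 210 and 811 CPM in controls 1 to 6. Tnmd, a membrane protein of tendon cells, was at 6.46 and 7.90 FPKM in controls 1 and 5 and between 39.1 and 60.8 FPKM in the other 4. Thbs4, a matrix protein of tendon and of muscle attachment, ranged from 44.9 to 199.9 FPKM and was also lowest in controls 5 and 1. The erythroid list was at 65.2 CPM in control 1 and between 454 and 905 CPM in the others. It consisted of globin RNA, with Hbb-bs at 35.3 FPKM in control 1 and 273 to 477 FPKM elsewhere. Hba-a1 and Hbb-bs share 67.5% and 65.8% of their words with neighbouring copies, so the split among globin genes is uncertain. Of 7 skin keratinocyte genes, 6 were below 1 CPM in all 6 libraries, with a mean of Krt5, Krt14 and Krt1 of at most 0.00947 FPKM. Krt10 reached 1 CPM in every library, at 2.19 ± 0.294 FPKM, and made up 95.1% of the summed list.

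**Figure D3:**
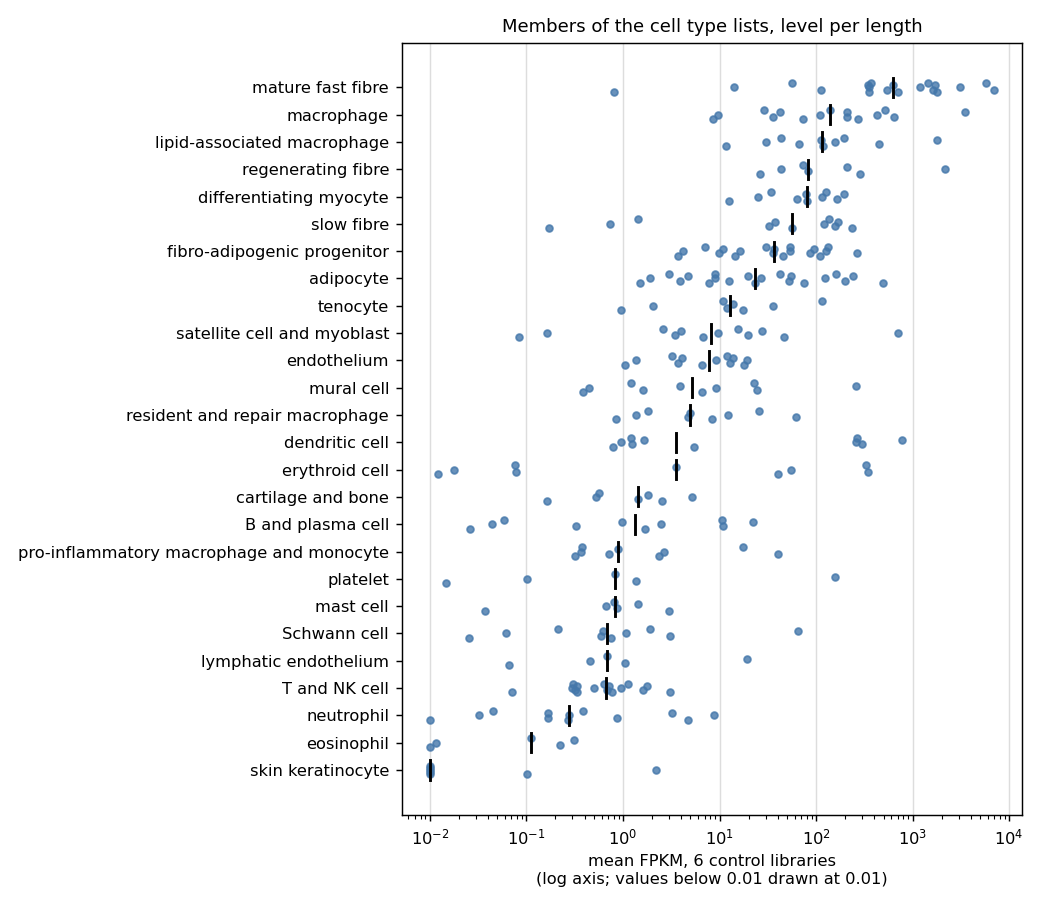
Mean FPKM over the 6 control libraries (horizontal log axis) of each member of 26 cell type lists, with a black bar at the median of the list and values below 0.01 drawn at 0.01. Mature fast fibres have the highest median at 624 FPKM, then macrophages at 139 FPKM, and single points far to the right of their list show where 1 gene carries it, such as Pf4 for platelets and Pmp22 for Schwann cells.

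Proliferation and interferon genes were detected in every library at different levels. All 21 cell cycle genes reached 1 CPM, with summed levels of 904, 835, 713, 662, 951 and 1269 CPM in controls 1 to 6, highest in control 6. Mki67, which marks dividing cells, was at 13.1, 10.3, 10.8, 9.37, 14.8 and 18.04 FPKM. All 16 interferon response genes reached 1 CPM, with summed levels of 865, 1112, 1745, 1336, 803 and 786 CPM. Irf7, the regulator of type I interferon, was at 27.6, 30.7, 70.4, 38.5, 16.97 and 16.97 FPKM, and Ifit3 had its highest values in the same controls 3 and 4. The interferon order, with control 3 highest and control 6 lowest, matched neither the fibre order nor the cell cycle order.

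Summed levels of genes of the nerve contact, of wasting and of secreted repair signals were more even than those of proliferation and interferon genes. All 13 genes that mark nerve contact and its loss reached 1 CPM, with a 1.32-fold range of the sum. The 6 atrophy genes were all low, with the ubiquitin ligases Trim63 at 20.1 ± 5.33 and Fbxo32 at 5.79 ± 2.44 FPKM. Of 14 secreted repair factors, 11 reached 1 CPM, and the growth factor Igf1, at 21.7 ± 2.51 FPKM, made up 46.8% of their sum. The complement list, led by C3 at 70.1 ± 17.4 FPKM, had a 2.36-fold range, lowest in control 5. Immediate early and heat shock genes, which respond quickly to handling or stress, had the most even sum of these lists, at 373 ± 21.9 CPM with a 1.18-fold range. After TMM scaling the order turned, with 1.32-fold for these genes and 1.16-fold for the nerve contact genes.

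**Figure D4:**
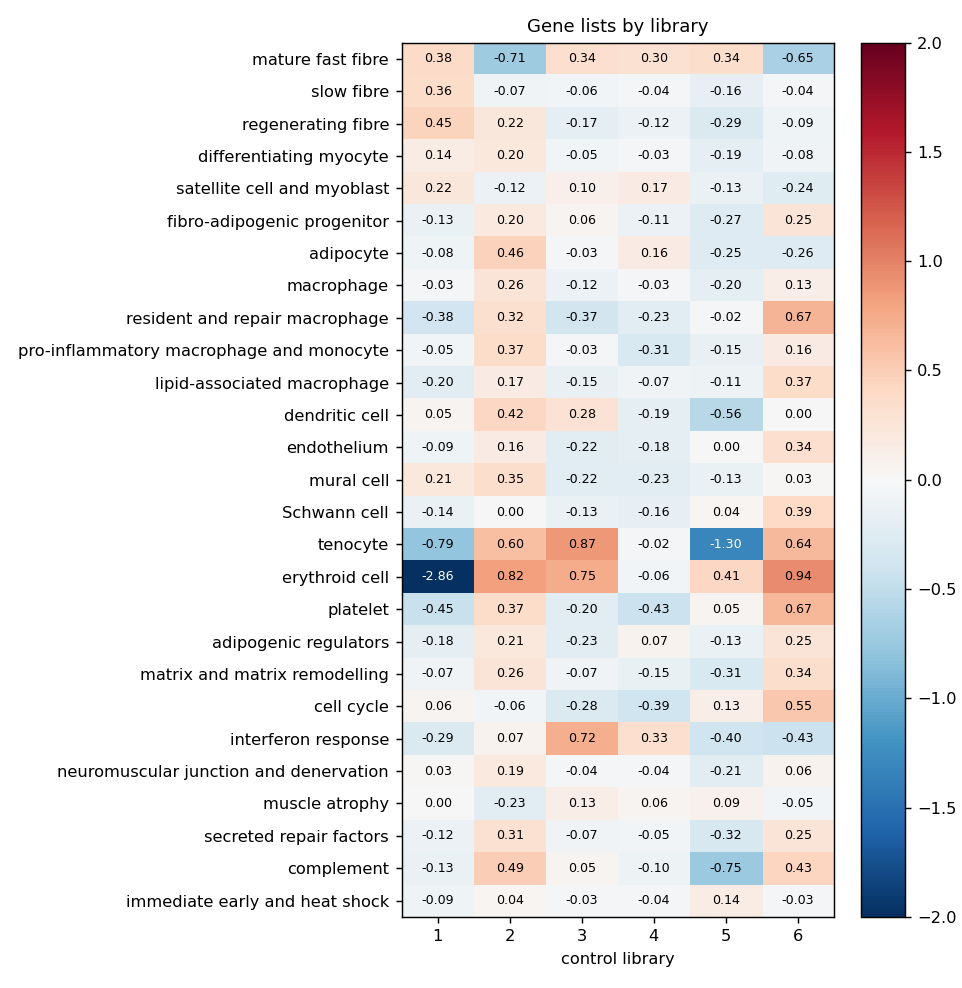
Summed CPM of each gene list above 100 CPM in each control library, as the log2 difference from the mean of the list over the 6 libraries (red higher, blue lower, scale ending at -2 and 2). Mature fast fibre genes are low in controls 2 and 6 at -0.71 and -0.65, tenocyte genes in controls 1 and 5 at -0.79 and -1.30, and erythroid genes in control 1 at -2.86.

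The orders between genes given above were tested for 14 pairs, as log2 ratios of FPKM within each library. The exact sign-flip permutation test over the 6 libraries was two-sided, with Benjamini-Hochberg adjustment over the 14 pairs. The pairs were chosen with earlier results of these data known, so their p-values are a description and not independent evidence. For 12 pairs (85.7%) all 6 libraries had the same order, which gave p = 0.03125 in the exact permutation test, the smallest value that 64 sign assignments allow, and an adjusted p of 0.0365. Among them were creatine kinase of muscle (Ckm), 9.43-fold above the brain form Ckb, and lactate dehydrogenase A (Ldha), 9.12-fold above Ldhb (log2 ratio 3.19 in FPKM, 4.27 in CPM). Plin2 against Plin1 had p = 0.0938 in the exact permutation test (adjusted p = 0.101), and Arg1 against Nos2 did not pass either. Over the 4 sets of libraries no p below 0.125 is possible, so with sets as the unit no pair can pass.

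Spread between libraries was measured by the biological coefficient of variation (BCV), the share of a gene's level by which libraries differ beyond counting error, estimated by edgeR over 14987 genes. The median was 0.149, and 90% of genes lay between 0.103 and 0.335. Genes between 10 and 100 CPM had a median of 0.127, but the 84 genes of at least 1000 CPM had 0.207. Of 1841 genes with a mean of at least 100 CPM, 63.7% stayed within a 1.5-fold range over the 6 libraries, and 9.56% exceeded 2-fold. In simulated counts of 14788 genes, the BCV of genes with a 4-fold higher dispersion was estimated at 0.566 of its true value, so moderate excess spread is understated.

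The lists differed in spread as they did in level. The median BCV was 0.370 for mature fast fibre genes, 0.552 for tenocyte genes, 0.452 for interferon genes and 0.701 for erythroid genes. It was 0.125 for endothelial genes, below the median of all genes but close to the 0.127 of genes between 10 and 100 CPM. Among protein-coding genes the widest spread belonged partly to matrix proteases and tendon genes: the collagenase Mmp13 ranged from 6.66 CPM in control 1 to 142 CPM in control 3, and Mmp3 and the cornea and tendon proteoglycan Kera had BCVs of 0.809 and 0.798. The most even genes above 50 CPM included Dynlt3, Txndc9, Otud5 and Bap1, with BCVs of 0.0932, 0.0933, 0.0931 and 0.0924.

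Gapdh, a glycolytic enzyme widely used as a reference, was among the least even of all. It was at 43.9, 25.1, 902, 908, 231 and 288 CPM in controls 1 to 6, a BCV of 1.05. In FPKM it ranged from 5.70 to 229.9, while Aldoa, an enzyme of the same pathway, ranged from 1063 to 2762. Its pseudogene Gm13394, which holds 94.7% of its words in common with Gapdh, was between 11.6 and 16.7 CPM in controls 1 to 3 and between 310.1 and 442 CPM in controls 4 to 6. Gapdh itself shared 27.2% of its words with other genes, so its count is uncertain, and the part of shared sequence in its spread was not tested.

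**Figure D5:**
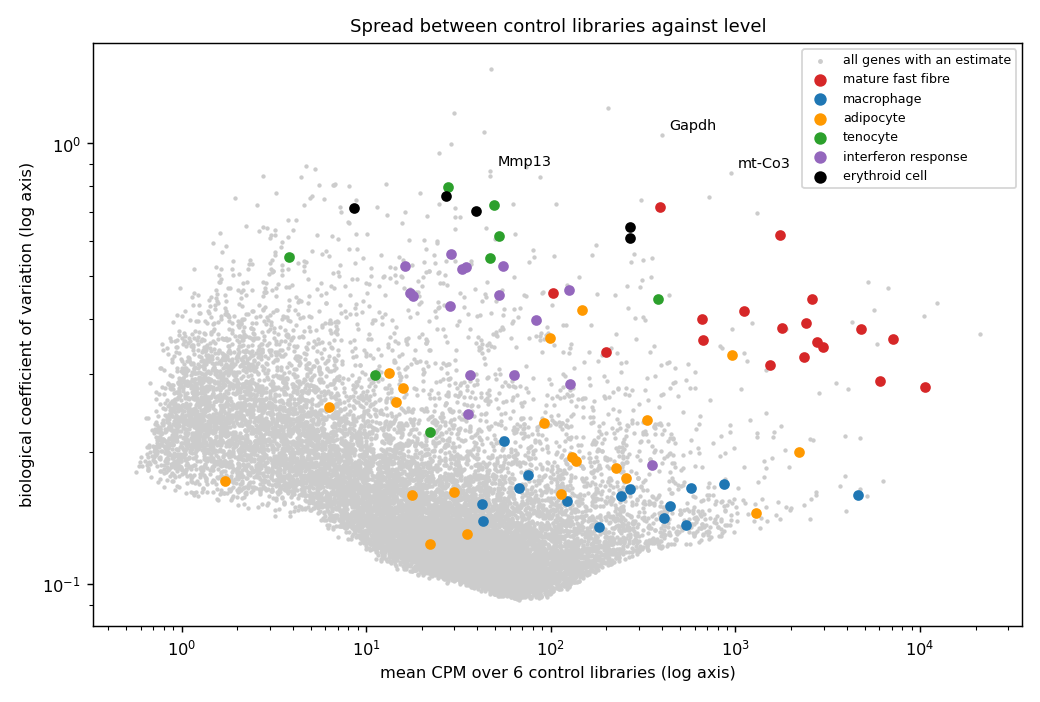
Biological coefficient of variation (vertical log axis) against mean CPM over the 6 control libraries (horizontal log axis), with every gene that has an estimate in grey and 6 gene lists in colour. Mature fast fibre genes lie above most genes of their level with a median BCV of 0.370, while macrophage genes lie near the bulk, and Gapdh stands at 1.05.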

How the data were processed

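The 6 control libraries were analysed; groups come from the labels. The authors deposited raw counts of reads for each gene as whole numbers, and gene lengths. FPKM divides by these lengths, which cover all exon bases of a gene and not a single transcript, so a ratio between genes depends on them. A further deposited table holds FPKM values, whose denominator was 0.998 to 1.01 times the TMM library size. The build is GRCm38 (mm10) and the tools are fastp, featureCounts and HISAT2 2.0.5, per the submitters' processing notes; poly-T beads selected messenger RNA, per the labels' protocols. The strand setting was not given in the sources used here.

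CPM is the count scaled by the column total. Spread was estimated with edgeR 4.0.16 in R 4.3.3 (filterByExpr at its default minimum count, 10, and minimum total, 15, TMM, robust dispersions without covariates) and tested on simulated data. FPKM ratios were tested as log2(FPKM + 0.1) by exact sign-flip permutation. Loci with discrete levels had a gap of at least 2 on the log2 scale, and libraries agreeing at 80% of them formed a set. The column total was between 17983299 and 25613732 counts; precision is limited by the 6 libraries, and count floors cover counting error only.

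The 26 cell type lists, 9 pathway lists, 21 classes and 14 pairs were chosen with earlier results of these data known, so no list was tested. The p-values of the pairs are a description for the same reason. Those lists name 399 genes, of which the table holds 398; with 5 sex-linked check genes this makes 403 members. Named genes are the 20 protein-coding genes with the highest CPM and 10 with the highest FPKM, the 5 leading non-coding genes, the 3 defining and 4 highest members of each list, the 3 highest of each class, the 15 most and 10 least variable protein-coding genes (mean of at least 5 and 50 CPM) and both genes of each pair. Tnnc2, Ube2c, Tagln, Myh2, Mybpc2, Ifi44l, Trim12a, Gm13394, Lyve1 and Ifit3, and other list members outside the rule, were named after their values were seen. Alternatives covered scaling, length, filters, DESeq2 1.42.0 dispersions, the pseudocount and each library left out. Shared sequence was counted as 50-base words of GENCODE M21 transcripts; of the 54532 genes in the table, 54495 occur there. A few genes that the rule selects are not reported here.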

Additional observations from a re-analysis of the deposited data

Results flagged for a closer look

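In groups of 6, a library was singled out when its gap to the nearest other library exceeded 0.625 of the whole range (Dixon's criterion). Chance flags about 1 in 20 groups, and 21 of 324 values checked met it, among them 2 of 57 lists and classes. All values are in CPM. The summed slow fibre list was high in control 1 at 3633, against 2529 to 2762 in the others, though its mean log2 CPM was highest in control 6. The Schwann cell list was high in control 6 at 244.6, and its leading gene Pmp22 at 209.9 in the same library.

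Control 3 was high for Mmp13 at 142, Mmp3 at 40.1, Ly6a at 251.8, the interferon-induced Bst2 at 208.6 and the myosin light chain pseudogene Mylf-ps at 1960, which shares 65.1% of its words with Myl1. The first 2 are matrix proteases. Ly6a is in the FAP list, whose sum was not highest in control 3, at 4025 against 4596 in control 6. Control 2 was high for the chaperone Hspa8 at 1951, the fusion gene Mymx at 60.1, S100a9 at 8.93 and S100a8 at 6.51. Control 5 was high for Lgals3 at 1172 and Lyve1 at 34.7.

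Control 6 was high for Arg1 at 20.9, Myh2 at 240.3 and the slow light chain Myl2 at 6.39, and low for Myf5 at 10.1. Arg1 had at most 3.06 in the other 5 libraries. Control 1 was high for the dendritic cell gene Flt3 at 8.66 and for Nkg7, a gene of cytotoxic cells, at 3.62. Myh7 was low in control 3 at 0.547, against 1.43 to 1.83 elsewhere.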

How the results depend on the processing

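No paired analysis was possible because no groups were compared. The share of counts in all 21 classes was 38.8%, 34.3% without mitochondrial genes in the denominator and 50.5% as a share of TPM. The median BCV was 0.330 over 29600 genes with no low count filter, 0.139 with DESeq2 dispersions, and between 0.136 and 0.158 with a library left out. The 12 pairs past the threshold became 0 with libraries averaged over sets and 0 with any library left out, since 5 libraries or 4 sets cannot reach 0.05 by construction. The log2 ratio of Col3a1 over Col1a1 turned to 0.40 in CPM without length. That of Arg1 over Nos2, with no direction by the test, turned to 0.17 with a pseudocount of 1, to 0.11 over sets to 0.044, 0.077 and 0.23 without controls 1, 4 and 5, and lay between -0.87 (without control 6) and 0.23 over all libraries left out. Of the other values for single lists, classes and pairs, 434 kept direction and threshold or moved by less than 1 SD, 85 lost the threshold (Pdgfra over Pdgfrb, at -0.18 in CPM, and otherwise pairs with fewer libraries or sets, by construction) and 19 moved by more. Genes near 1 CPM have few counts, and their spread is poorly known.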

Other observations

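Other groups of housekeeping and minor cell type genes had levels that the comparisons above do not use. Fth1, the heavy chain of the iron store ferritin, was at 2543 ± 188 CPM (SD, n = 6), with a 1.22-fold range. Vim, the intermediate filament of mesenchymal cells and leukocytes, was at 2580 ± 308 CPM, and beta-actin (Actb) at 1995 ± 264 CPM. All 3 were highest in control 6. B2m, the light chain of MHC class I, ranged from 638 CPM in control 5 to 1124 CPM in control 6. Of RNAs without a protein, Neat1, which builds nuclear paraspeckles, was at 1203 ± 248 CPM.

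Cartilage, lymphatic and mast cell genes were low. Sox9, a factor of cartilage and of several other cell types, was at 5.17 ± 1.01 FPKM, and Runx2, which directs bone formation, at 2.55 ± 0.35 FPKM. The cartilage collagen Col2a1 was between 0.211 and 1.23 FPKM, highest in control 5. Prox1, the defining factor of lymphatic vessels, was at 0.679 ± 0.21 FPKM. The mast cell proteases Cma1 and Cpa3 were at 2.97 ± 1.13 and 1.44 ± 0.61 FPKM. Lyve1, carried by lymphatic vessels and by resident macrophages, was between 2.81 and 4.29 FPKM in controls 1, 2, 3, 4 and 6 and at 12.6 FPKM in control 5.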
